A study of Mus musculus with 6 samples.

Results

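The genes followed here mark the neurons of the inner retina, and their reads were counted in endothelial cells sorted from the retina. They are 9 genes of the 55487 in the table, chosen by symbol as usual markers of 3 neuron classes and all 9 were listed: Prkca, Grm6 and Trpm1 for bipolar cells, Pax6, Tfap2a and Gad1 for amacrine cells, and Rbpms, Pou4f1 and Nefl for retinal ganglion cells (RGCs). RNA-seq was made from vascular endothelial cells (VECs) of P7.5 mouse retinas, with 3 control libraries (tdTomato FL/+;Pdgf-icreER) and 3 Bmal1;CKO libraries (Bmal1 FL/FL;tdTomato FL/+;Pdgf-icreER). Both groups carried the tdTomato reporter and the Pdgf-icreER transgene, which gives endothelial cells a tamoxifen-inducible Cre and GFP, both were given tamoxifen from P0.5 to P2.5, retinas were taken at noon, and cells positive for GFP and tdTomato were sorted at P7.5. Only the Bmal1;CKO group carried the floxed Bmal1 alleles, and the number of animals behind a library is not given beyond 3 per group, so p-values measure the spread between these libraries. The numbers of the table name the libraries, with control being 1 to 3 and Bmal1;CKO being 4 to 6.

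Bipolar cells carry the signal of the photoreceptors to the inner retina. ON bipolar cells sense glutamate with the receptor mGluR6, encoded by Grm6, which acts through a G protein on the cation channel TRPM1, and the rod bipolar cells among them contain protein kinase C alpha, encoded by Prkca. Amacrine cells are the inhibitory interneurons of the inner retina. Many make GABA with the decarboxylase GAD67 (Gad1), and they are marked by the transcription factors PAX6 and AP-2 alpha (Tfap2a). RGCs send the output of the retina to the brain, and are identified by the RNA-binding protein RBPMS, the POU-domain factor BRN3A (Pou4f1), whose cells the study counted in retinal sections, and neurofilament light chain (Nefl). None of these classes is vascular, but Prkca, Rbpms and Pax6 are less restricted than the others: Prkca is expressed in many tissues, Rbpms also in smooth muscle and related mural cells, and Pax6 also in retinal progenitors, horizontal cells and Müller glia.

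The libraries had 71145068 to 104017800 reads on genes. The values are normalized counts, which are reads divided by the size factor of the library, and 3 reads correspond to 2.14 to 4.22 normalized counts. Bmal1 itself, listed as Arntl, had 1700.4, 3489 and 2928 normalized counts in control libraries 1 to 3 and 1779, 2747 and 2415 in Bmal1;CKO libraries 4 to 6, so the groups overlapped in the counts of the targeted gene. By droplet digital PCR of sorted endothelial cells, the study reported significantly less Bmal1 transcript in the mutant. The counts here are of the whole gene, and why these measures differ was not tested. Scaled to 1000000 reads on genes (RPM), the 12 endothelial markers together had 1349 to 3439 RPM, against 19135 to 41561 for 9 microglial markers and 2552 to 5841 for 8 rod markers. Control library 1 stood apart: of the 20459 genes tested, it was the lowest of the 6 libraries in 6509 (31.8%) and the highest in 5494. Both counts were larger than those of any other library. It had the highest endothelial and the lowest pericyte sum, so results that turn on it are given with and without it.

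Transcripts of all 9 genes were counted in the sorted cells, and none of the 9 separated the genotypes. The test was limma-trend, a linear model with moderated variances, of log2(normalized count + 1). It was fitted to all 20459 genes that reached 10 reads in 3 or more libraries, and its p-values were adjusted by the Benjamini-Hochberg method. All 9 members passed that filter, and 0 of 9 passed FDR < 0.05 (0.0% of all genes tested). At an unadjusted p under 0.05 there were 0 of 9, against 4.92% of all genes, 1.75% lower and 3.17% higher. edgeR's quasi-likelihood test gave 0 of 9 by either measure, against 0.0% at FDR < 0.05 and 3.8% unadjusted, and so did DESeq2, against 0.327% and 5.94%. In 0 of 9 did the 3 libraries of a group lie above all 3 of the other, against 11.2% of all genes tested (6.62% higher, 4.54% lower). The direction of several members depended on the fit: limma-trend put 5 lower and 4 higher in Bmal1;CKO (43.4% of all genes lower), whereas edgeR on the recovered reads put 8 lower and only Tfap2a higher. The libraries were of sorted endothelial cells, so the counts do not measure the neurons of the whole retina. In such bulk RNA the number of cells of a class in a library and the RNA per cell cannot be told apart. The values of every library are shown in the plot of member genes by library.

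**Figure D1:**
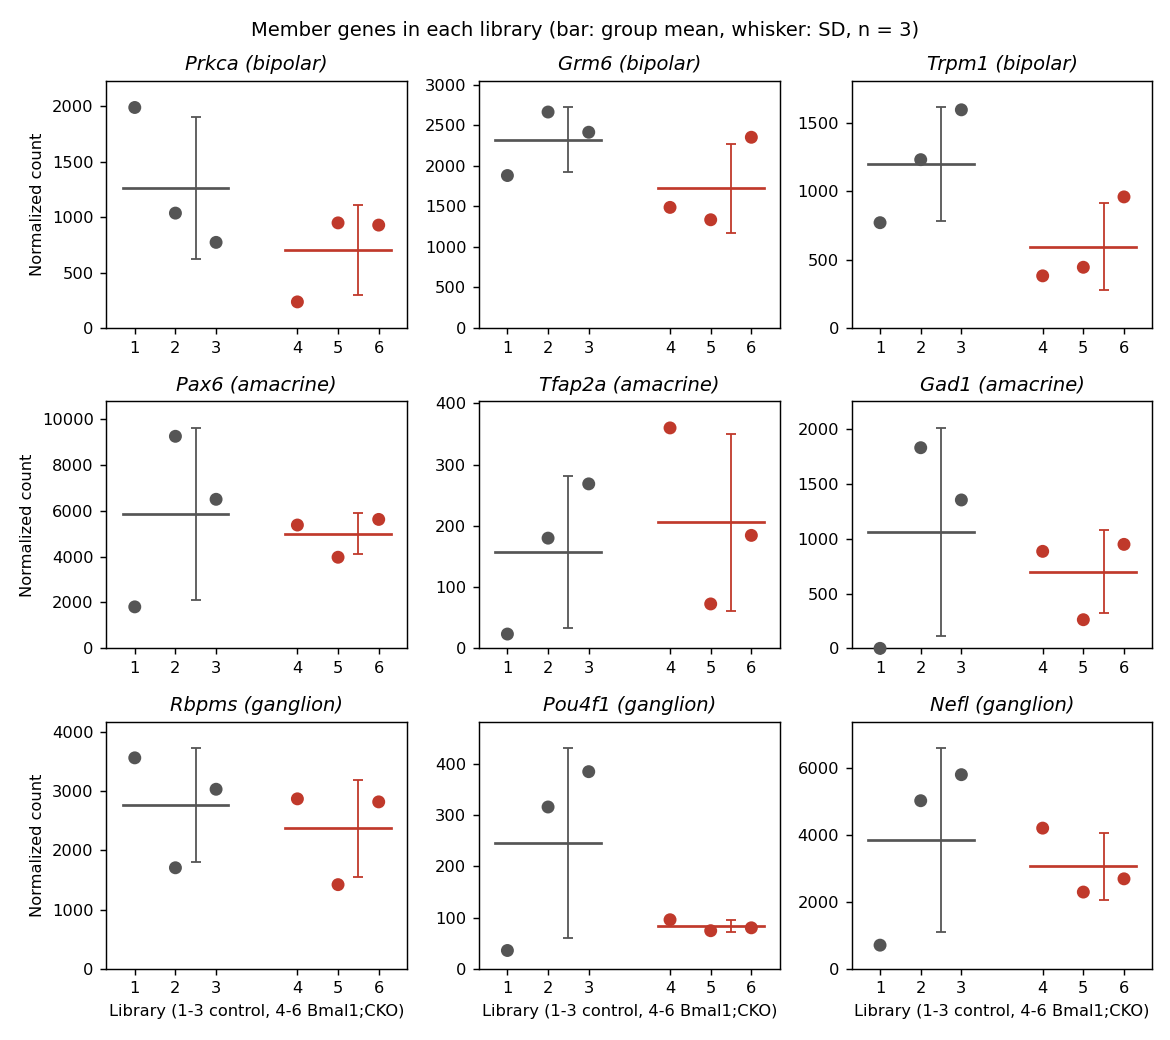
Normalized counts of the 9 members (y axis, linear from 0) in control libraries 1 to 3 (grey) and Bmal1;CKO libraries 4 to 6 (red), with group means (bars) and SD (whiskers, n = 3). The groups overlapped in all 9 genes, and control library 1 was the lowest in 5 of them: Pax6, Tfap2a, Gad1, Pou4f1 and Nefl.

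The bipolar genes were read in every library, and their means were lower in Bmal1;CKO in all 3. Grm6, the glutamate receptor of ON bipolar cells, lies on the forward strand at chr11:50850685-50866208 of GRCm38 (ENSMUSG00000000617). It had 1881, 2665 and 2416 normalized counts in control libraries 1 to 3 and 1488, 1335 and 2354 in Bmal1;CKO libraries 4 to 6. Its levels were the most even of the 9 members, with the highest library 2.00 times the lowest, and Bmal1;CKO library 6 lay among the controls. The means were 2321 ± 400.5 in control and 1726 ± 549 in Bmal1;CKO (SD, n = 3 each), which limma-trend fitted as a log2 difference of -0.46 (95% interval -1.22 to 0.31, adjusted p = 0.883).

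Trpm1, the channel that closes when mGluR6 binds glutamate, lies on the forward strand at chr7:64153835-64269775 (ENSMUSG00000030523). It had 770.2, 1231 and 1596 normalized counts in the control libraries and 381, 444 and 959 in Bmal1;CKO. Bmal1;CKO libraries 4 and 5 were below every control, and library 6 was above control library 1. The means were 1199 ± 414 in control and 595 ± 317 in Bmal1;CKO (SD, n = 3 each), which limma-trend fitted as a log2 difference of -1.07 (95% interval -2.24 to 0.10, adjusted p = 0.883). Its unadjusted p of 0.0674 was the smallest of the 9 members, and with 1 library left out its log2 fold change ran between -1.48 (Bmal1;CKO library 6 left out, unadjusted p under 0.05) and -0.81 (Bmal1;CKO library 4 left out).

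Prkca, the kinase that marks rod bipolar cells, lies on the reverse strand at chr11:107933387-108343928 (ENSMUSG00000050965). It had 1988, 1036 and 772 normalized counts in control libraries 1 to 3 and 235, 948 and 928 in Bmal1;CKO libraries 4 to 6. Unlike Grm6 and Trpm1, it was highest in control library 1, and control library 3 was below Bmal1;CKO libraries 5 and 6. The means were 1265 ± 640.0 in control and 703 ± 406 in Bmal1;CKO (SD, n = 3 each), which limma-trend fitted as a log2 difference of -0.98 (95% interval -2.50 to 0.54, adjusted p = 0.883). The difference rested largely on Bmal1;CKO library 4, the lowest, since the log2 fold change was -0.32 without it. Without control library 1, the highest, it was -0.60. In library 4 the rod markers were also at their lowest, with 2552 RPM against 3548 to 5841 in the other libraries; the part of this in the bipolar values was not tested.

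The sequences before the starts of the ON bipolar genes are shown because BMAL1, with CLOCK, binds the E-box CACGTG, and because OTX2 and CRX, the homeobox factors of photoreceptors and bipolar cells, bind TAATCC. RefSeq (GRCm38.p6) gave 10 windows of 250 bases before a start for 7 of the 9 members; no window was used for Rbpms and Nefl. Searched on both strands, CACGTG (the same on either strand) was found in 1 of the 10 windows, at the internal start of Trpm1, and in 6.02% of all 32851 windows. TAATCC or its reverse GGATTA was found in 2 of the 10, the first start of Trpm1 and the start of Gad1, and in 6.25% of all windows. The windows below hold no exon base of the 9 members in GENCODE M21, and exons of other genes were not checked. They are written in the direction of transcription and carry any match in capitals. They are chr11:50850435-50850684 (forward strand), with neither motif, chr7:64153585-64153834 (forward strand), with GGATTA 34 bases before the start, and 30 bases around the E-box at chr7:64185218-64185247 (forward strand), which begins 229 bases before the internal start of Trpm1.
Grm6: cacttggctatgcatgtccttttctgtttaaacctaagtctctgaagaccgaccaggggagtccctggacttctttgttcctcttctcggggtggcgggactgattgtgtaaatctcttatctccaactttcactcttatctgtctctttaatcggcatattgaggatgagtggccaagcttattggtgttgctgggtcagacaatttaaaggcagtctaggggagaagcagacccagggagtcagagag
Trpm1 first start: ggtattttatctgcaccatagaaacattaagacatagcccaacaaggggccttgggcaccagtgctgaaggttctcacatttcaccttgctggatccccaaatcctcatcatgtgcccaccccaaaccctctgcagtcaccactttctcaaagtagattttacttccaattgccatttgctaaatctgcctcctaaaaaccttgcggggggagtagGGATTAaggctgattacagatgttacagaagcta
Trpm1 internal start, E-box: agtaattggaagCACGTGgctcctcttcct
A match is a description of these letters and not evidence of binding. Trpm1, with the CACGTG match, and Grm6, without one, both had overlapping groups, and a link between the motif and the genotype difference was not tested.

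In all 3 amacrine genes the SD of the control libraries was larger than the difference between the group means, and control library 1 was the lowest. Pax6, the paired-box factor of the eye, lies on the forward strand at chr2:105668900-105697364 (ENSMUSG00000027168) and had the highest count of the 9 members. It had 1807, 9235 and 6491 normalized counts in control libraries 1 to 3 and 5371, 3968 and 5616 in Bmal1;CKO libraries 4 to 6. Control libraries 2 and 3 were above all Bmal1;CKO libraries, and control library 1 was below them. The means were 5845 ± 3756 in control and 4985 ± 889 in Bmal1;CKO (SD, n = 3 each), which limma-trend fitted as a log2 difference of 0.048 (95% interval -1.28 to 1.38, adjusted p = 0.990).

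Gad1, which makes GABA, lies on the forward strand at chr2:70553072-70602014 (ENSMUSG00000070880). It had 0, 1833 and 1355 normalized counts in the control libraries and 886, 262 and 949.8 in Bmal1;CKO. The count of 0 in control library 1 allows up to 3.69 normalized counts (3 reads, counting error only), far below the 262 of the next lowest library. The means of counts and the fit on the log scale differed in sign: the means were 1063 ± 951 in control and 699 ± 380.2 in Bmal1;CKO (SD, n = 3 each), yet the fit was positive, with a limma-trend log2 difference of 2.16 (95% interval -4.00 to 8.32, adjusted p = 0.895). edgeR on the recovered reads gave a log2 fold change of -0.61, and limma-trend without control library 1 gave -1.38.

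Tfap2a, an AP-2 transcription factor of amacrine and horizontal cells, lies on the reverse strand at chr13:40715302-40738376 (ENSMUSG00000021359). It had 23.4, 180.0 and 269 normalized counts in control libraries 1 to 3 and 360.1, 72.6 and 185 in Bmal1;CKO libraries 4 to 6. It was the only member with its highest value in Bmal1;CKO, in library 4, while library 5 was lower than control libraries 2 and 3. The means were 157 ± 124 in control and 206 ± 145 in Bmal1;CKO (SD, n = 3 each), which limma-trend fitted as a log2 difference of 0.68 (95% interval -1.93 to 3.30, adjusted p = 0.909). Antisense genes overlap its exons, among them Gm26688 over 380 bases with up to 191 normalized counts, and whether the counting used strand is not given in the sources used here.

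Of the RGC genes, Pou4f1 and Nefl put the 6 libraries in the same order and Rbpms in another. Pou4f1, which encodes BRN3A, lies on the reverse strand at chr14:104461676-104467999 (ENSMUSG00000048349). It had 35.7, 316 and 384 normalized counts in control libraries 1 to 3 and 95.6, 74.3 and 79.9 in Bmal1;CKO libraries 4 to 6. The Bmal1;CKO values were close together, between control library 1 and the much higher control libraries 2 and 3. The means were 245 ± 185 in control and 83.3 ± 11.1 in Bmal1;CKO (SD, n = 3 each), which limma-trend fitted as a log2 difference of -0.98 (95% interval -3.40 to 1.45, adjusted p = 0.886). Of the 9 members it had the largest ratio of means, with control 2.94 times Bmal1;CKO, but the spread within control covered the difference (two-sided exact permutation test, p = 0.4, n = 3 against 3, smallest possible 0.1). The 250 bases before its start, at chr14:104468000-104468249 on the reverse strand, hold neither CACGTG nor TAATCC and 78.0% G and C, and are printed as the region before the gene that the study followed by immunolabelling.
Pou4f1: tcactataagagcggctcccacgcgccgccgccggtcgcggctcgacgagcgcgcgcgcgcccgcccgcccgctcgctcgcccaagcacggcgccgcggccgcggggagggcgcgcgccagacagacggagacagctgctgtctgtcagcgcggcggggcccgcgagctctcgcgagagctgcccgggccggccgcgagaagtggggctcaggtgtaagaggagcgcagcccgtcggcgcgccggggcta

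Nefl, the light chain of the neurofilaments of long axons, lies on the forward strand at chr14:68083863-68089095 (ENSMUSG00000022055). It had 707, 5033 and 5813 normalized counts in the control libraries and 4212, 2297 and 2694 in Bmal1;CKO. The order of the libraries was that of Pou4f1, with control library 1 far below the rest and control libraries 2 and 3 on top. The means were 3851 ± 2750.4 in control and 3068 ± 1011 in Bmal1;CKO (SD, n = 3 each), which limma-trend fitted as a log2 difference of 0.11 (95% interval -1.68 to 1.90, adjusted p = 0.982). Its exons share 1108 bases, 32.8% of its exon length, with exons of Nefm on the opposite strand, so reads of both cannot be told apart there if the counting ignored strand.

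Rbpms, the RNA-binding protein used to label RGCs, lies on the reverse strand at chr8:33782643-33929863 (ENSMUSG00000031586). It had 3559.5, 1705 and 3029 normalized counts in control libraries 1 to 3 and 2868, 1420.0 and 2817 in Bmal1;CKO libraries 4 to 6. It did not follow Pou4f1 and Nefl: control library 1, the lowest for those genes, was the highest for Rbpms, and library 2 was the lowest control. The means were 2765 ± 955 in control and 2368 ± 821 in Bmal1;CKO (SD, n = 3 each), which limma-trend fitted as a log2 difference of -0.23 (95% interval -1.19 to 0.73, adjusted p = 0.918). In control library 1 the endothelial markers were at their highest, with 3439 RPM, and in Bmal1;CKO library 5, the lowest for Rbpms, they were at their lowest, with 1349. The pericyte and smooth muscle markers did not share that order, with 22.0 in control library 1 and 659 in control library 3. The part of these cells in the Rbpms values was not tested.

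**Figure D2:**
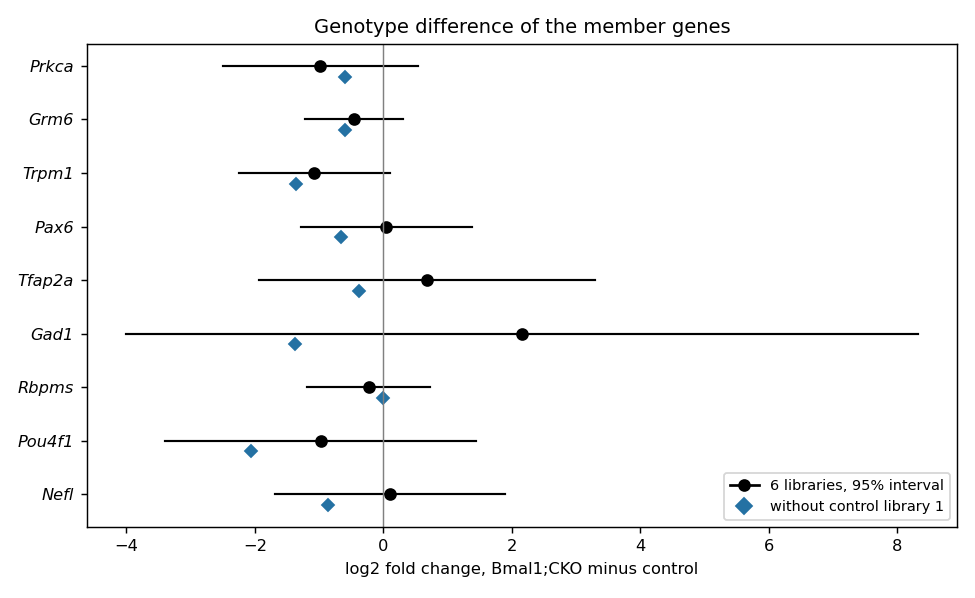
Log2 fold change of each member (x axis, Bmal1;CKO minus control; points with 95% interval from limma-trend, 6 libraries) and the value without control library 1 (blue diamonds). All 9 intervals include 0, and without control library 1 all 9 values are negative, from -2.06 for Pou4f1 to -0.011 for Rbpms.

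Levels of different genes were compared per kilobase of exons, as normalized counts divided by the exon length in GENCODE M21. Nefl led with 1024 ± 563 normalized counts per kb (SD, n = 6 libraries), above Pax6 with 463 ± 213 in 6 of 6 libraries. Pax6, Rbpms (391 ± 126) and Grm6 (373 ± 99.5) were neighbours whose ranges over the libraries overlapped. Within libraries, Pax6 was above Rbpms in 5 of 6, and Rbpms was above Grm6 in only 3 of 6. Grm6 was above Gad1 (115 ± 88.7) in 6 of 6. The ranges of Gad1 and Prkca (109 ± 63.3) overlapped, with Gad1 above in 4 of 6 libraries. Those of Prkca and Trpm1 (60.8 ± 31.7) also overlapped, with Prkca above in 5 of 6. Tfap2a and Pou4f1, both transcription factors, were the lowest, with 37.0 ± 25.2 and 35.2 ± 31.4, and did not differ beyond their spread.

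Control library 1 decided the sign or the overlap of most members. Without it, the log2 fold change was below 0 for all 9 members, against 50.0% of the 20224 genes tested. Values below 0 were not particular to the members. Without control library 1, they were also found for 8 of 8 pan-neuronal, 8 of 8 rod, 10 of 12 endothelial and 45 of 55 wider list genes. With all 6 libraries, the counts in the same order were 6 of 8, 7 of 8, 12 of 12 and 20 of 55. The endothelial count thus fell when control library 1 was left out. Of the remaining lists without control library 1, 7 of 8 pericyte and smooth muscle, 4 of 6 cone and 3 of 4 astrocyte genes were lower. Only 2 of 5 Müller glia and 1 of 4 horizontal cell genes were lower. In the other direction, 9 of 9 microglial genes were higher. In 6 of 9, Grm6, Trpm1, Pax6, Gad1, Pou4f1 and Nefl, both remaining control libraries were above all 3 Bmal1;CKO libraries, against 12.9% of all genes with that direction, and 0 of 9 were apart in the other direction, against 12.9%. This comparison was chosen after seeing the data, and an exact permutation test of 2 libraries against 3 cannot give a p below 0.2. By limma-trend 4 of 9 had an unadjusted p under 0.05, all lower, against 8.63% of all genes, 3.77% lower and 4.87% higher: -2.06 for Pou4f1 (unadjusted p = 0.00630), -1.36 for Trpm1 (unadjusted p = 0.0189), -0.87 for Nefl (unadjusted p = 0.0282) and -1.38 for Gad1 (unadjusted p = 0.0410). Control library 1 was the lowest library for Pou4f1, Nefl and Gad1, so leaving it out lowers their log2 fold change by construction. These unadjusted p-values are therefore a description and no support for a difference. After adjustment 0 of 9 passed (smallest adjusted p = 0.482), where 6 genes in all, 0.0297%, did. With another library left out fewer members were apart, each lower in Bmal1;CKO. Without control library 2 it was Rbpms (8.27% of all genes), without control library 3 Prkca (14.5%), and without Bmal1;CKO library 6 Grm6 and Trpm1 (8.28%). Without Bmal1;CKO library 4 or 5 it was 0 of 9, against 7.0% and 7.56%. With the latter 5 libraries left out in turn, 0 of 9 were apart and higher, against 9.33% to 16.5% of all genes. Without Bmal1;CKO library 6, 1 of 9 (Trpm1) had an unadjusted p under 0.05, against 2.86% of all genes. At FDR < 0.05, 0 of 9 passed in these and the other alternatives, against 0.00291% of all genes with a filter of 1 read in total, 0.00665% with 10 reads required in every library (0 of 8 members there, since Gad1 did not pass), the values given above for DESeq2 and without control library 1, and 0.0% in the rest.

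The members were also set against the summed counts of other genes of their class. That sum is not the RNA of the class alone, since Gnb3 and Otx2, the most abundant genes of the bipolar list, are shared with photoreceptors. A difference on this scale can lie in the member or in the list. The wider lists held 22 bipolar, 17 amacrine and 20 RGC genes, and each member was expressed per 1000 normalized counts of its class list, a scale chosen after seeing the data. On this scale 3 of 9 members separated the groups, Trpm1, Grm6 and Pou4f1, each lower in Bmal1;CKO (two-sided exact permutation test, p = 0.1 for each, n = 3 against 3, the smallest possible). Of the bipolar members 2 of 3 were apart and lower, against 5.94% of all genes tested set against the bipolar list (3.89% higher). Of the amacrine members it was 0 of 3, against 1.41% (3.76% higher) with the amacrine list, and of the RGC members 1 of 3, against 1.43% (4.08% higher) with the RGC list. The members were chosen with results known and the scale after seeing the data, so the counts are a description. Trpm1 had 10.3, 8.53 and 10.9 per 1000 in control libraries 1 to 3 and 3.59, 2.70 and 6.47 in Bmal1;CKO libraries 4 to 6. Grm6 had 25.2, 18.5 and 16.5 in control and 14.0, 8.13 and 15.9 in Bmal1;CKO, a gap smaller than the spread within either group. Pou4f1 had 2.45, 5.76 and 7.70 in control and 1.63, 2.36 and 2.22 in Bmal1;CKO, so control library 1 was above the highest Bmal1;CKO library by a small margin only. Prkca, Pax6, Tfap2a, Gad1, Rbpms and Nefl overlapped, with p from 0.3 to 0.8 by the exact permutation test. Nefl was nearly constant in Bmal1;CKO on this scale, with 71.6, 73.0 and 75.0, and ranged from 48.5 to 116 in control. Rbpms was at 244 in control library 1 and between 31.1 and 78.4 elsewhere. Prkca likewise was at 26.7 in control library 1 and between 2.21 and 7.17 elsewhere.

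**Figure D3:**
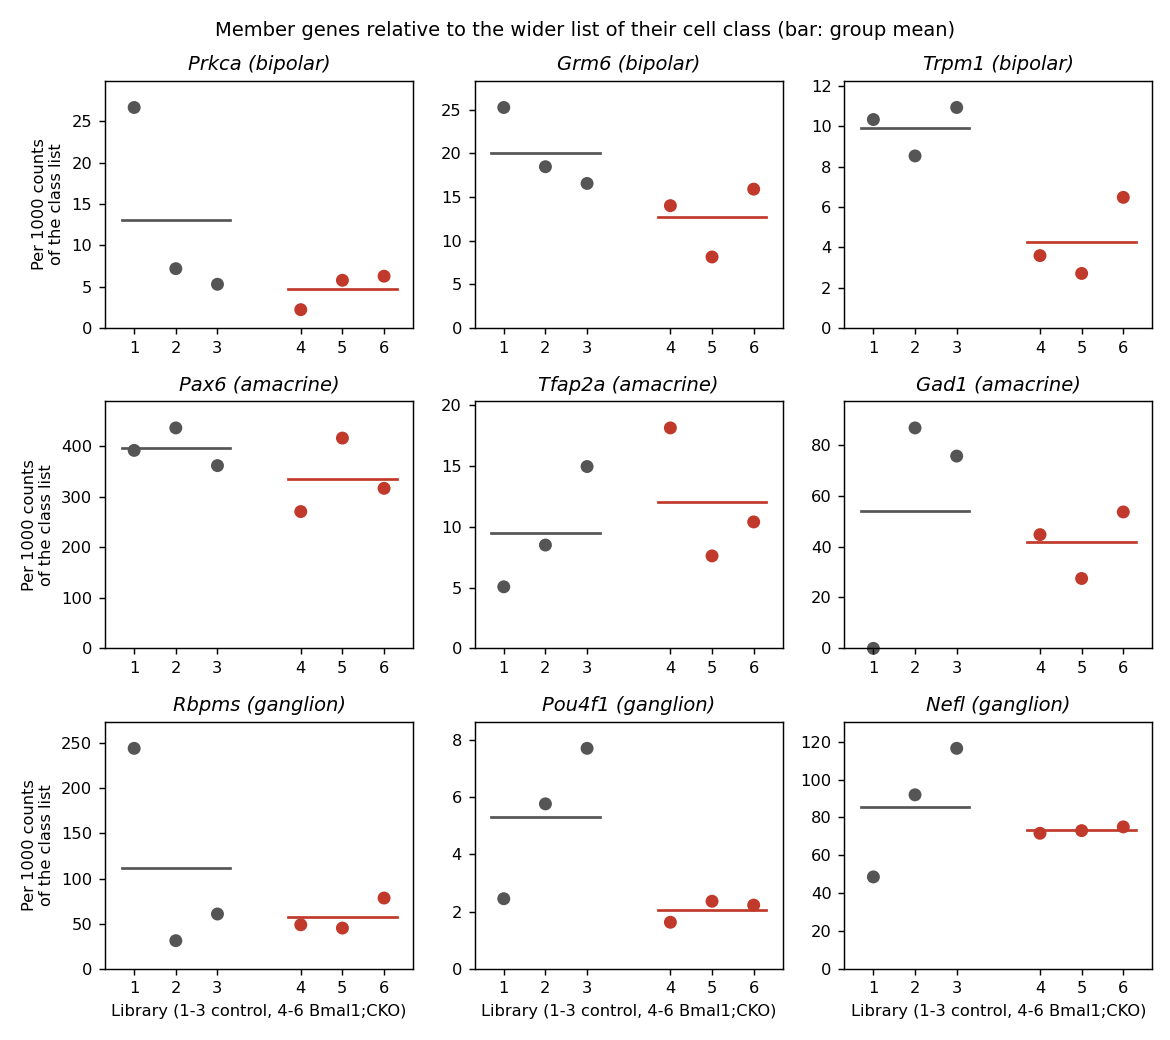
Each member per 1000 normalized counts of the wider list of its class (y axis, linear from 0) in control libraries 1 to 3 (grey) and Bmal1;CKO libraries 4 to 6 (red), with group means (bars). The groups are apart in Trpm1, Grm6 and Pou4f1 and overlap in the other 6 genes. Rbpms and Prkca in control library 1 lie far above their other libraries.

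Of the 22 other bipolar genes, 21 were tested, and by limma-trend 0 had an adjusted p under 0.05, 12 had a lower and 9 a higher fitted value in Bmal1;CKO. Their median log2 fold change was -0.52 beside 0.11 for all genes tested. At an unadjusted p under 0.05 there were 2, Rgs7 and Lrit3, both lower, against 1.75% of all genes in that direction; edgeR gave Rgs7 alone, and DESeq2 both and Sebox. Rgs7, which with its partners ends the signal of mGluR6, had 449, 349 and 476 normalized counts in control libraries 1 to 3 and 148, 137 and 126 in Bmal1;CKO libraries 4 to 6. The groups were apart, with every control library far above the highest Bmal1;CKO library, at a log2 fold change of -1.62 (standard error 0.55) and an adjusted p of 0.883; without Bmal1;CKO library 5 or 6 its unadjusted p was no longer under 0.05. Lrit3, a cell surface protein of the mGluR6 cascade, had 525, 277 and 36.4 in control and 0, 48.4 and 14.0 in Bmal1;CKO. Sebox, a homeobox gene, was the only other gene of this list with groups apart (named after its values were seen), with 839, 619 and 509 in control and 263, 363 and 331 in Bmal1;CKO.

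Among the most abundant bipolar genes, the means of Gnb3 and Otx2 were higher in Bmal1;CKO, unlike Rgs7, and that of Isl1 was lower. In all 3 the groups overlapped. Gnb3, the beta subunit of the G proteins of ON bipolar cells and cones, had 40349 ± 10234 in control and 51351 ± 8229 in Bmal1;CKO (SD, n = 3 each). Its log2 fold change was 0.37 (standard error 0.30). Otx2, a homeobox factor of photoreceptors and bipolar cells, had 30179.9 ± 11186 in control and 39716 ± 10964 in Bmal1;CKO (SD, n = 3 each). Its log2 fold change was 0.43 (standard error 0.37). Isl1, a factor of ON bipolar cells and also of RGCs and some amacrine cells, had 11636 ± 2677 in control and 8035 ± 2074 in Bmal1;CKO (SD, n = 3 each). Its log2 fold change was -0.55 (standard error 0.30). These 3 differences were within 2 standard errors of 0. Otx2 and Gnb3 are shared with photoreceptors, so the summed level of the list is not that of bipolar cells alone.

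Of the 17 other amacrine genes, 15 were tested, and 13 had a higher and 2 a lower fitted value in Bmal1;CKO, the median of the log2 fold changes being 0.95; by limma-trend 0 had an adjusted p and 0 an unadjusted p under 0.05. The direction turned on control library 1, in which 10 of the 17 had under 10 reads. Without it 4 were higher and 11 lower, with a median of -0.55 beside 0.00 for all genes, and edgeR over all 6 libraries gave a median of -0.063. Tfap2b, an AP-2 factor related to Tfap2a, had 1919, 7511 and 5581 in control and 10489, 3169 and 6272 in Bmal1;CKO, and like Tfap2a was highest in library 4. Calb2, which encodes calretinin, had 1141 ± 686 in control and 847 ± 238 in Bmal1;CKO (SD, n = 3 each), and Dab1, an adaptor of reelin signalling found in AII amacrine cells, had 1317 ± 759 in control and 1742 ± 274 in Bmal1;CKO (SD, n = 3 each). Their log2 fold changes were -0.19 (standard error 0.63) and 0.60 (standard error 0.51).

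Of the 20 other RGC genes, 19 were tested, and 13 had a higher and 6 a lower fitted value in Bmal1;CKO, the median of the log2 fold changes being 0.91; 0 had an adjusted p and 0 an unadjusted p under 0.05 by limma-trend. Without control library 1, in which 10 of the 20 had under 10 reads, 3 were higher and 16 lower and the median was -0.49. With edgeR the median over 6 libraries was 0.044. Nefm, the medium neurofilament chain, had 552, 6243 and 5471 normalized counts in control libraries 1 to 3 and 5829.8, 3141 and 3310.0 in Bmal1;CKO libraries 4 to 6, the lowest value being again in control library 1. Tubb3, a neuronal tubulin, had 3141, 14353 and 15298 in control and 18119, 13464 and 13099 in Bmal1;CKO. Gap43 and Stmn2, proteins of growing axons, were also lowest in control library 1, with 1982 and 2797, and Gap43 was highest in Bmal1;CKO library 4 with 15581. Pou4f1 was thus lower against most of its class. Its log2 fold change was -0.98 where the class median was 0.91, and -2.06 against -0.49 without control library 1. This contrast was not tested. In retinal sections at P7.5, the study reported significantly more cells labelled for BRN3A in Bmal1;CKO than in controls. That measure is of labelled cells in sections, and the values here are RNA of sorted endothelial cells. Why their directions differ was not tested.

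**Figure D4:**
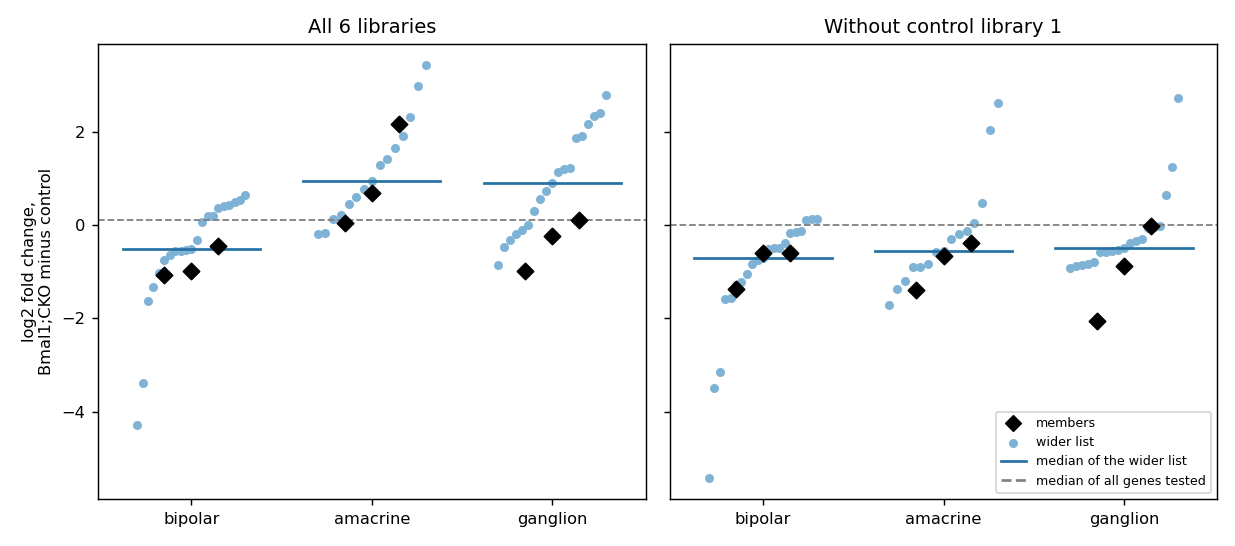
Log2 fold changes (y axis, Bmal1;CKO minus control) of the members (black diamonds) and the wider lists (blue points, median as a bar) with all 6 libraries and without control library 1; the dashed line is the median of all genes tested. The medians of the wider lists are -0.52, 0.95 and 0.91 for bipolar, amacrine and RGC genes with 6 libraries, and -0.71, -0.55 and -0.49 without control library 1.

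Summed over members and wider list, bipolar genes took 738, 2005 and 2029.5 RPM in control libraries 1 to 3 and 1083, 1948 and 1979 in Bmal1;CKO libraries 4 to 6. Amacrine genes took 60.0, 435 and 351 in control and 264, 161 and 318 in Bmal1;CKO. RGC genes took 176, 829.6 and 796 in control and 659.6, 411 and 539 in Bmal1;CKO. In each class the groups overlapped and control library 1 was the lowest library, and the exact permutation test gave p = 1, 0.8 and 0.8 (two-sided, n = 3 against 3, adjusted p = 1.0 for all 3). Bmal1;CKO library 5, which is not low in bipolar genes, was the lowest of the other 5 libraries in amacrine and RGC genes. The sums of 8 pan-neuronal markers ran from 406 to 1215 in control and from 493 to 949.9 in Bmal1;CKO, and those of 5 horizontal cell markers from 21.9 to 56.7 over all libraries. The endothelial sums were 2543 to 3439 in control and 1349 to 3151 in Bmal1;CKO. For the other lists the sums were 19135 to 39438 and 27147 to 41561 for microglia, 314 to 741 and 529.5 to 604 for cones, 562 to 853 and 806 to 967 for Müller glia, and 4.85 to 83.0 and 17.6 to 27.4 for astrocytes, control first. How far the mixture of cells in a library set the members' values was not tested.

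**Figure D5:**
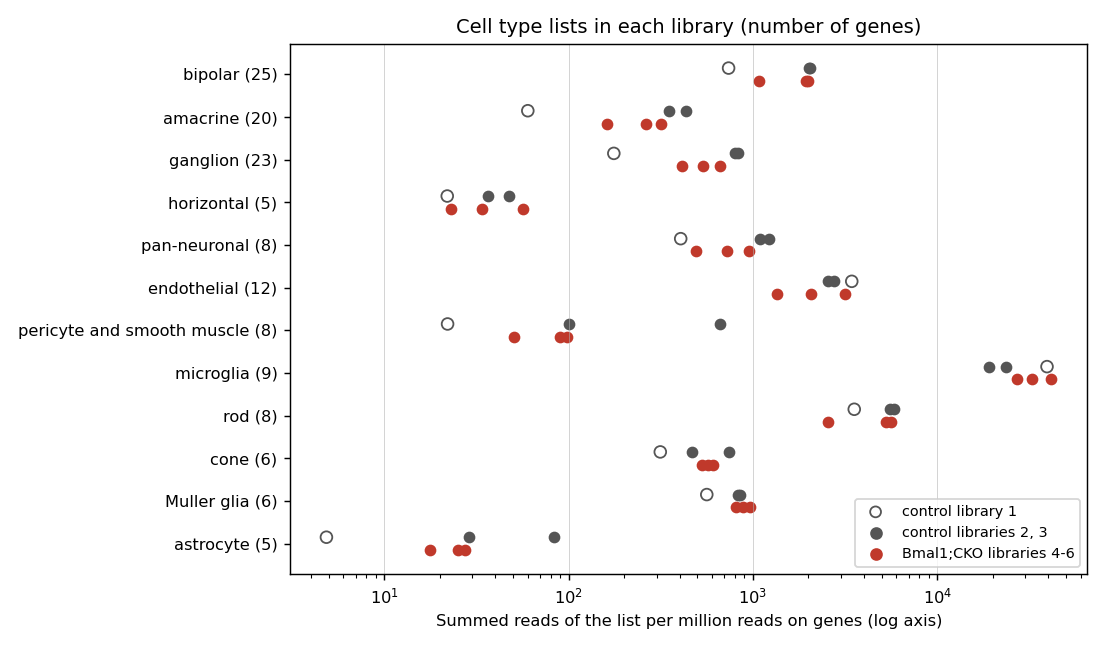
Summed RPM of each cell type list (x axis, log scale), with control library 1 as open circles, control libraries 2 and 3 in grey and Bmal1;CKO libraries 4 to 6 in red; the number of genes in a list is in brackets. Control library 1 is the lowest library for bipolar, amacrine and ganglion genes and the highest for endothelial genes.

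The genes nearest to each member in pattern were found by the root-mean-square difference of log2(normalized count + 1), centred on its mean, over the 6 libraries, given here in brackets on the log2 scale. Nefl was nearest to Hpca (0.119) and Iqck (0.142); Hpca encodes hippocalcin, a neuronal calcium sensor. Pax6 was nearest to Spon1 (0.140) and Cntn1 (0.140), of which Cntn1 encodes contactin 1, a neuronal adhesion protein. Gad1 was nearest to Efnb3 (0.432) and Parm1 (0.450) and Tfap2a to Spred2 (0.230) and Ptprn2 (0.326), with larger differences. Among the bipolar genes, Grm6 was nearest to Cand1 (0.0613) and Abce1 (0.0973) and Prkca to Cc2d2a (0.171) and Pla2r1 (0.172), while Ahcyl1 (0.199) was among the nearest to Trpm1. Rbpms was nearest to Anxa2 (0.124) and Vwa1 (0.130), and Pou4f1 to Glb1l2 (0.281) and Brd8dc (0.311). No member was among the nearest of another member, and with 6 libraries such likeness is a description of these libraries.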

How the data were processed

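RNA of 3 control and 3 Bmal1;CKO samples was measured with 1 library each. The tools named by the authors are FastQC, Trimmomatic, Bowtie (mm10, the GRCm38 build), featureCounts for the count per gene and DESeq2; versions and the use of strand are not given in the sources used here. The authors deposited a signal per gene and library, the count divided by the size factor, and, from their own comparison, a mean, a log2 fold change with standard error, a Wald score and p-values, which were not used. Dividing each column by its smallest step gave whole reads for 100.0% of values (tolerance 0.01), with 71145068 to 104017800 reads per library and size factors of 0.711 to 1.40. The column names show the genotype only, because their numbers do not match those in the sample descriptions, and each column was used as a replicate of its genotype. Starts in the table count from 0 and are written from 1. Exon lengths are from GENCODE M21, and windows before starts from RefSeq GRCm38.p6.

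The test was limma-trend (3.58.1, R 4.3.3) with genotype as the only term, a pseudocount of 1 and at least 10 reads in at least 3 libraries. Alternatives were edgeR 4.0.16, DESeq2 1.42.0, limma-voom, log2 CPM with TMM scaling, pseudocounts of 0.5 and 10, other filters and leaving out each library. For single values the exact permutation test was used (Python 3.11.15, scipy 1.17.1). The members and lists were chosen with earlier results of these data known. Named genes are the 9 members, the 4 genes of highest mean in each wider list, genes at FDR < 0.05, genes with an unadjusted p under 0.05 and groups apart, and the 2 genes nearest in pattern to each member. Some genes that this rule names are not reported here. Separation without a library and levels relative to a class list were added after seeing the data. Intervals and floors cover counting or replicate error only, since the libraries were amplified.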

Additional observations from a re-analysis of the deposited data

How the results depend on the processing

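The count of 0 members and 0 wider list genes at FDR < 0.05 was the same in all 15 alternatives to limma-trend, and Grm6, Trpm1, Prkca and Pou4f1 kept a negative log2 fold change in each. Gad1 was -0.61 with edgeR and TMM scaling, -0.60 with edgeR and the size factors and -0.60 with DESeq2; Pax6 was -0.23, -0.23 and -0.23, and Nefl -0.34, -0.33 and -0.33, or -0.011 with limma-voom. Leaving out 1 library gave -1.38 to 4.04 for Gad1, -0.65 to 0.52 for Pax6, -0.87 to 0.65 for Nefl, -0.38 to 1.36 for Tfap2a and -0.54 to 0.11 for Rbpms. Without control library 1 Gad1, Pax6, Nefl and Tfap2a were negative, without Bmal1;CKO library 4 Pax6 was -0.014 and Nefl -0.14, without Bmal1;CKO library 6 Pax6 was -0.046, and without Bmal1;CKO library 5 Rbpms was 0.11. Members with groups apart numbered 0 in RPM and in TMM-scaled CPM, 0 to 6 with 1 library left out, and 3 relative to the class list, where 1.41% to 5.94% of all genes tested were apart and lower, depending on the list. The difference of the class sums (Bmal1;CKO minus control, RPM) was 79.3 for bipolar, -34.1 for amacrine and -63.7 for RGC genes, and ran from -347 to 373, -145 to 42.5 and -276 to 50.9 with 1 library left out. It was -22.0 for the bipolar members alone, and 991 in normalized counts for RGC genes. No paired analysis was possible because the columns carry no replicate number that matches the samples. The cause of these changes was not tested. At the depth of control library 1, its count of 0 for Gad1 allows up to 3.69 normalized counts.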

Other observations

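Ptf1a, the factor that sets amacrine and horizontal cell fate in retinal progenitors, did not pass the filter on reads. It had 0, 0 and 2 reads in control libraries 1 to 3 and 19, 104 and 6 in Bmal1;CKO libraries 4 to 6, and was named after its values were seen. Bmal1;CKO library 6 lay close to the control libraries.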
